A study of Mus musculus with 2 samples.

Results

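The 8 genes described here encode complement components and complement receptors: C1qa, C1qb and C1qc, the chains of C1q; C3; Cfb, complement factor B; Cfp, properdin; and C3ar1 and C5ar1, the receptors of the C3a and C5a fragments. They were chosen by gene symbol and make up 8 of the 32285 features in the count tables, each symbol standing in 1 row. RNA was counted in CD45-positive cells taken with magnetic beads from 143B tumors of nude mice. The 143B line was derived from a human osteosarcoma. One library was made from mice given control IgG, a human IgG1 isotype control, and the other from mice given anti-CD3L1 antibody, and each library held a set of 3 tumors. In the study's nude mouse experiments the mice were female and 4 weeks old at the start and both agents were given at 10 mg/kg every 3 days, 4 times in all. Nude mice have no thymus and lack most T cells but keep their myeloid cells, and the tumor cells are human while the complement genes counted here are those of the mouse host. With 1 library per group there is no replicate, so no test of the antibody can be made, and treatment, tumor set and library cannot be told apart. Every interval below is a 95% interval that covers counting error only.

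Complement is a protein cascade that tags targets for uptake and calls in inflammatory cells. C1q starts the classical pathway when it binds antibody or dying cells, C3 is the central component that every pathway cleaves, and factor B and properdin form and hold together the enzyme of the alternative pathway. The fragments C3a and C5a act through receptors on myeloid cells. Outside the liver, which makes most plasma C3, tissue macrophages are a main source of C1q, and neutrophils carry properdin and the C5a receptor.

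The stretches of 250 bases before the annotated starts of C1qb, C1qc, C3 and Cfp are shown because the C1q chains were counted together across cells whereas C3 and Cfp differed between the libraries in the other direction. The sequences are from RefSeq on GRCm38.p6, whereas the submitters' processing notes name GRCm39 for the counts. A start sequence was matched for 6 of the 8 genes, with none for C1qa and Cfb. All 4 lie on the minus strand, at chr4:136886201-136886450 for C1qb, chr4:136892915-136893164 for C1qc, chr17:57228137-57228386 for C3 and chrX:20931556-20931805 for Cfp. Capitals mark matches, on either strand, to TGANTCA (AP-1), TTNNGNAA (C/EBP) and GAGGAA (a PU.1-type ETS site).
C1qb: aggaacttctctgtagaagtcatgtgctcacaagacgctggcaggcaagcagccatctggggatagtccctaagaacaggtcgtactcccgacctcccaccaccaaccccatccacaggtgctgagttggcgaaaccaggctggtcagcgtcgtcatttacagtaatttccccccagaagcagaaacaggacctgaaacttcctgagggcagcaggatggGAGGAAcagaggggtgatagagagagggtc
C1qc: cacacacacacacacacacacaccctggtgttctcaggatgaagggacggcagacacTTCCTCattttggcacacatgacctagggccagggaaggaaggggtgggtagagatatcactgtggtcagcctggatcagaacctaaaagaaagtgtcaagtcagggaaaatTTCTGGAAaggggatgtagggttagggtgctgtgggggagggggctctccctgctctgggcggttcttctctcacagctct
C3: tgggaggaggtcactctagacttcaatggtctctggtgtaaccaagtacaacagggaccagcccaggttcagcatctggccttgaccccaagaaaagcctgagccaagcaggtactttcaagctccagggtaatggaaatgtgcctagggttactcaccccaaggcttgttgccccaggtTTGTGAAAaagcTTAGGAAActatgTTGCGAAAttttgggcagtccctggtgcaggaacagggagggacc
Cfp: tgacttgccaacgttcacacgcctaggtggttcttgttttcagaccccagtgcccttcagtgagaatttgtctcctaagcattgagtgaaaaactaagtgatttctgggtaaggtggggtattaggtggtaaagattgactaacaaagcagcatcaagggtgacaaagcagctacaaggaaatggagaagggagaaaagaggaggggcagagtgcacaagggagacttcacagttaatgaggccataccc

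C1qb held GAGGAA 30 to 25 bases before its start. C1qc held the C/EBP letters 81 to 74 bases before its start and GAGGAA on the reverse strand 193 to 188 bases before it, so the only motif both C1q stretches held was GAGGAA. The C3 stretch held the C/EBP letters 3 times, from 70 to 38 bases before the start. None of the 3 motifs was in the Cfp stretch. C3ar1 and C5ar1 were also matched but are not shown. C3ar1 held TGACTCA, an AP-1 match, 22 to 16 bases before its start. C5ar1 held the C/EBP letters 157 to 150 bases before its start. Among 32851 RefSeq stretches of this length, 36.8% held the C/EBP letters, 23.3% GAGGAA and 6.75% TGANTCA, so each match is a description of letters that many promoters share.

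Barcodes with at least 500 UMIs, over 200 and under 6000 genes and under 5% mitochondrial UMIs were kept as cells, 8557 from the control IgG library and 11269 from the anti-CD3L1 library, with median depths of 5526 and 8267 UMIs. Cells were put into classes by marker lists that hold no complement gene. Each class with 50 or more cells had 3 or more of its own markers among its 10 leading genes. The gates were set by the same markers, so this is no separate support for the class names. The score that led to the gate was less than 0.1 above the next for 20.7% of the control IgG and 15.1% of the anti-CD3L1 macrophage-gated cells, and for 12.5% and 19.2% of the monocyte-gated cells. Ptprc, which encodes CD45, was counted in 95.1% of the control IgG cells and 91.1% of the anti-CD3L1 cells. The libraries differed widely in makeup. Macrophage-gated cells were 745 (8.71%) of the control IgG cells and 4107 (36.5%) of the anti-CD3L1 cells, monocyte-gated cells 1173 (13.7%) and 2718 (24.1%), and neutrophil-gated cells 5910 (69.1%) and 605 (5.37%). NK-gated cells numbered 146 and 836. Classes of dendritic, B and innate lymphoid cells had 50 or more cells in the anti-CD3L1 library only, and 471 and 1918 cells met no gate. The libraries shared 26 kept barcodes.

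The 3 C1q chains were macrophage transcripts in both libraries. Levels are given as CPM, a gene's UMIs scaled to the same standard total of UMIs in every class, which do not account for transcript length. C1qa was at 1793 CPM (1767 to 1819) in control IgG macrophage-gated cells, 47.6 in monocyte-gated, 19.4 in neutrophil-gated and 6.73 in NK-gated cells. In the anti-CD3L1 library these levels were 3197 (3180 to 3214), 206, 70.2 and 39.0 CPM. C1qb followed the same order, from 1232 CPM in control IgG macrophage-gated cells to 3.93 in NK-gated cells and from 2353 to 32.7 CPM in the anti-CD3L1 library. C1qc ran from 902 to 1.68 CPM and from 1374 to 16.0 CPM. Among the 10 classes of the anti-CD3L1 library with 50 or more cells, the macrophage-gated class held the highest C1q levels and no other gated class was above 206 CPM for any chain. Macrophage-gated cells held 86.5% of all C1qa UMIs under control IgG and 90.1% under anti-CD3L1, although they were a small share of the cells in the first.

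Free RNA reaches droplets of every class, and empty droplets of 10 to 100 UMIs held the summed C1q chains at 916 CPM under control IgG and 3271 CPM under anti-CD3L1. NK-gated cells, which should lack C1q, had 12.3 and 87.7 CPM of summed C1q, and monocyte-gated cells had 107 and 475 CPM, which is 8.65 and 5.41 times the NK level. Where each cell was thinned to 1000 UMIs, C1qa was counted in 2.05% of control IgG monocyte-gated cells against 1.37% of NK-gated cells, and in 11.0% against 3.47% in the anti-CD3L1 library. Median depths before thinning were 12301 and 10922.5 UMIs for these classes under control IgG and 7741.5 and 8605 UMIs under anti-CD3L1. The control IgG NK share had an interval of 0.166% to 4.86%, which held the monocyte share. In neutrophil-gated cells C1qa was in 1.11% (0.857% to 1.42%) of thinned control IgG cells and 4.84% (3.21% to 6.96%) of thinned anti-CD3L1 cells, and both intervals overlapped those of the NK shares. By CPM the neutrophil levels of C1qa, 19.4 (17.9 to 20.9) and 70.2 (58.4 to 83.7), were above the NK levels, 6.73 (3.48 to 11.8) and 39.0 (34.8 to 43.6), in both libraries. Neutrophil-gated cells were shallower, however, at median depths of 4495.5 and 2163 UMIs. Counted per cell, C1qa was at 0.110 and 0.207 UMIs in neutrophil-gated cells against 0.0822 and 0.372 UMIs in NK-gated cells. Whether the neutrophil levels exceed free RNA was not tested.

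**Figure D1:**
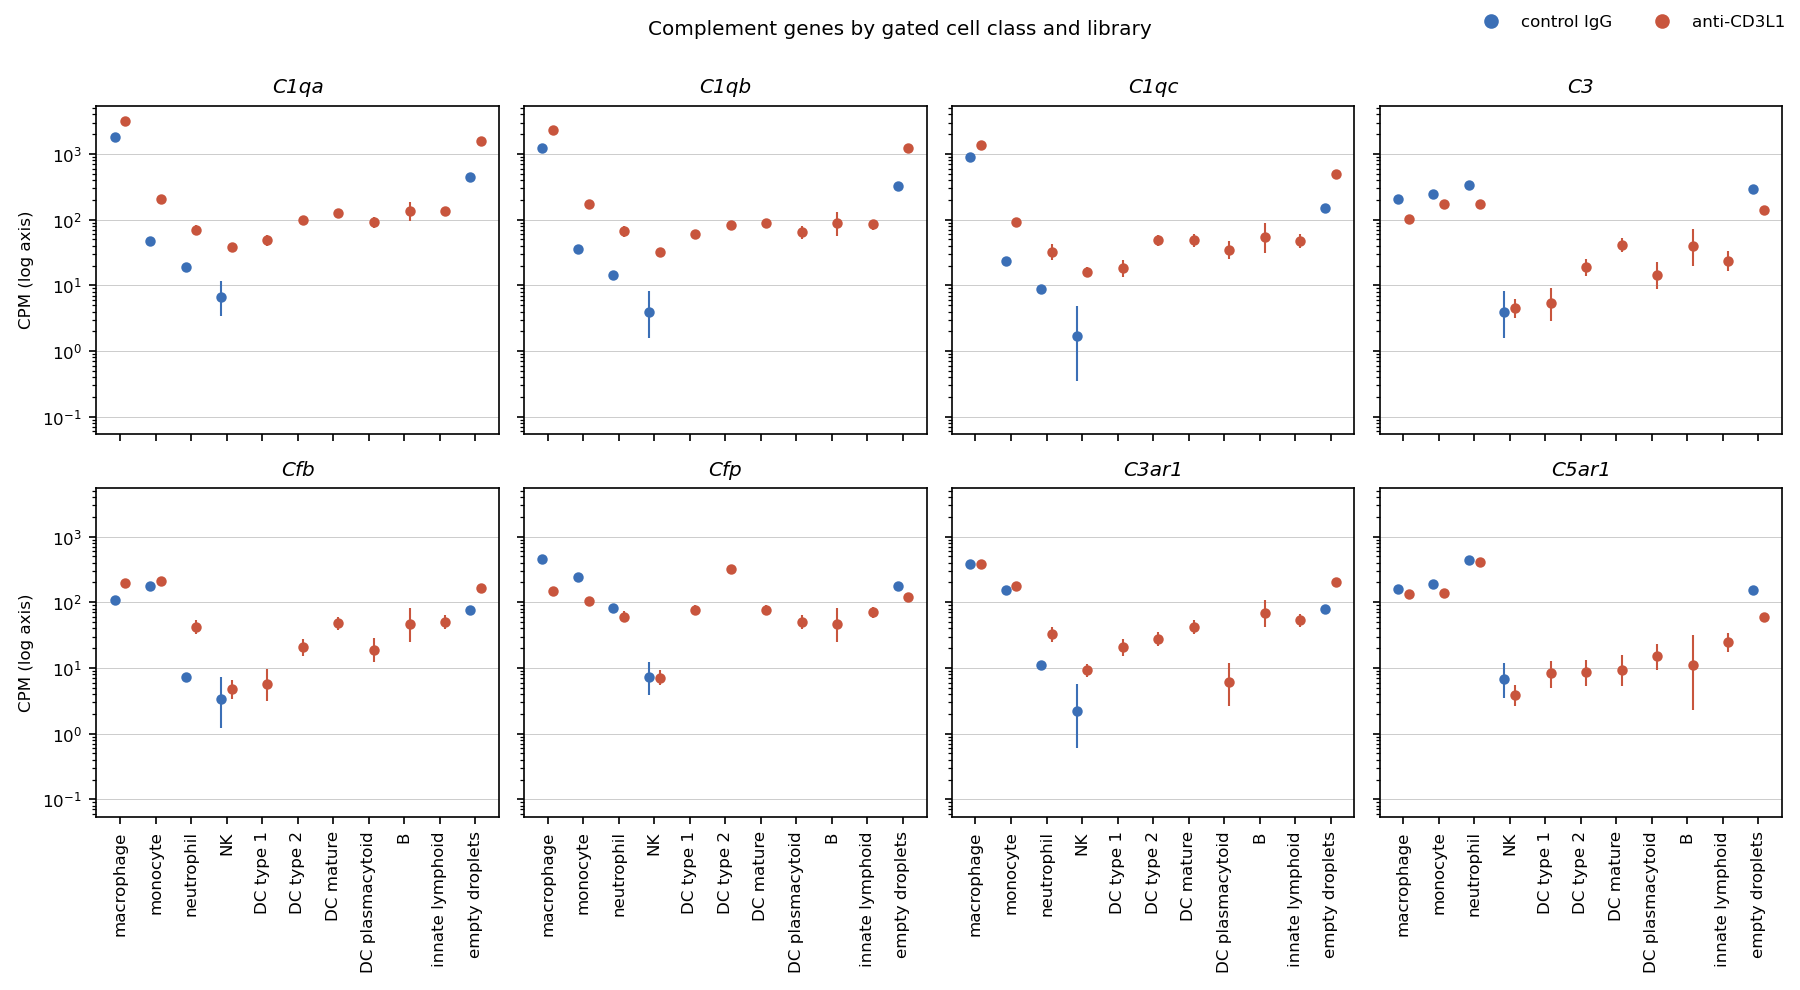
CPM of the 8 genes on a log axis for each gated cell class and for empty droplets, with control IgG in blue and anti-CD3L1 in red. Bars are exact Poisson 95% intervals, and classes with under 50 cells in a library are not drawn. The C1q chains stand highest in macrophages, C3 and C5ar1 in neutrophils, and Cfp in the anti-CD3L1 library stands highest in type 2 dendritic cells at 322 CPM.

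In macrophage-gated cells all 3 chains were higher in the anti-CD3L1 library, by less than 2-fold with the marker gates. C1qa was 1.78-fold higher (log2 ratio 0.83, 0.81 to 0.86), C1qb 1.91-fold higher (0.93, 0.91 to 0.96) and C1qc 1.52-fold higher (0.61, 0.57 to 0.64). The summed CPM of the macrophage marker list was higher in these cells as well, at 19340 against 13860 CPM in the control IgG library. Such a sum follows its most abundant markers and does not give the direction of each. In cells with 5 or more C1q UMIs after thinning to 1000 UMIs, Apoe was at 18390 CPM under control IgG and 18980 CPM under anti-CD3L1. Folr2 was at 79.6 and 184 CPM there, Trem2 at 225 and 483 CPM, and Pf4 at 692 and 384 CPM. All are markers on the list, and Pf4 alone of them was lower. The size of the C1q differences depended on how macrophages were defined. In clusters named macrophage and made without the 8 genes, the log2 ratios were 1.46, 1.59 and 1.24, each past 2-fold. Those clusters included cluster 14, with 607 control IgG and 38 anti-CD3L1 cells, and cluster 13, with 6 and 671. Cluster 1, which held 633 anti-CD3L1 macrophage-gated cells, was given no class name and was left out. In monocyte-gated cells the chains were 4.33-fold, 4.85-fold and 4.04-fold higher. The summed CPM of the macrophage marker list was also higher there, at 4397 against 2736 CPM in the control IgG library, with none of its 13 markers at 0. In neutrophil-gated cells the C1q chains were 3.62-fold, 4.58-fold and 3.73-fold higher at levels of 70.2 CPM or less, beside 916 and 3271 CPM in empty droplets. The same sum was higher in neutrophil-gated cells too, at 1662 CPM against 516 CPM in the control IgG library, with none of the 13 macrophage markers at 0. The direction of single markers in monocyte-gated and neutrophil-gated cells is not given by these sums. The part of macrophage RNA in these differences was not tested. With the mean content of an empty droplet subtracted from each cell, the log2 ratio of C1qa was 2.08 instead of 2.12 in monocyte-gated cells and 1.25 instead of 1.86 in neutrophil-gated cells. Whether that content covers all free RNA of a cell was not tested. Before it was subtracted, NK-gated cells held 0.0822 and 0.372 C1qa UMIs per cell, beside 0.110 and 0.207 in neutrophil-gated cells.

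The monocyte-gated cells of the libraries also lay in different proportions over the clusters, which were made from all kept cells without the 8 genes. Cluster 5, led by Vcan and Chil3, held 635 of the 1173 control IgG cells and 462 of the 2718 anti-CD3L1 cells, and cluster 7, led by Ly6i and Ly6c2, held 32 and 597. C1qa was 2.26-fold higher in cluster 5, 2.87-fold in cluster 10 and 2.50-fold in cluster 11, each less than the 4.33-fold of the gate. In cluster 7 it was at 337 and 301 CPM, with a log2 ratio of -0.16 whose interval, -0.46 to 0.15, held 0, and the intervals of C1qb and C1qc there also held 0. In cluster 18, of 36 and 41 monocyte-gated cells, the log2 ratio of C1qa was 2.99 (1.15 to 5.43), from 4.33 to 34.3 CPM.

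The chains were counted together within cells. Over the 745 control IgG macrophage-gated cells, Pearson's r of log2(CPM + 1) per cell was 0.89 for C1qa with C1qb, 0.89 for C1qa with C1qc and 0.90 for C1qb with C1qc, and over the 4107 anti-CD3L1 cells it was 0.82, 0.85 and 0.84. The points are cells of 1 library and share its depth and free RNA. Among all other pairs of the 8 genes the highest r was 0.30, for C3 with Cfp under control IgG. Of the summed C1q UMIs, C1qa made up 45.6% and 46.2% in macrophage-gated cells, C1qb 31.4% and 34.0%, and C1qc 23.0% and 19.8%. In empty droplets the C1qc share was 16.6% and 15.1%.

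Macrophage-gated cells were split between cells with and without C1q. With each cell thinned to 1000 UMIs, 52.7% of 740 control IgG cells (49.0% to 56.4%) and 25.8% of 4067 anti-CD3L1 cells (24.4% to 27.2%) held no C1q UMI. Cells with 5 or more C1q UMIs were 29.7% (26.5% to 33.2%) and 52.0% (50.4% to 53.5%). The intervals of the libraries did not overlap for either share. They are over the cells of 1 library each and hold no spread between tumors or libraries. Without thinning, any C1q UMI was found in 61.3% and 86.3% of these cells at median depths of 13436 and 9581 UMIs, so the library with the shallower macrophage-gated cells had the larger share. NK-gated cells held no C1q UMI in 98.0% and 93.4% of thinned cells. In cells with no C1q UMI of 1000, the C1q counted in the whole cell was 2.01-fold higher in the anti-CD3L1 library for C1qa, 3.27-fold for C1qb and 2.44-fold for C1qc. In cells with 1 to 4 C1q UMIs, C1qa was 1.03-fold and C1qb 1.10-fold higher and C1qc 1.14-fold lower. Among cells with 5 or more C1q UMIs the levels also lay closer than over the class, with C1qa 1.10-fold and C1qb 1.17-fold higher and C1qc 1.06-fold lower in the anti-CD3L1 library. This split was made on C1q itself, so these ratios are a description.

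**Figure D2:**
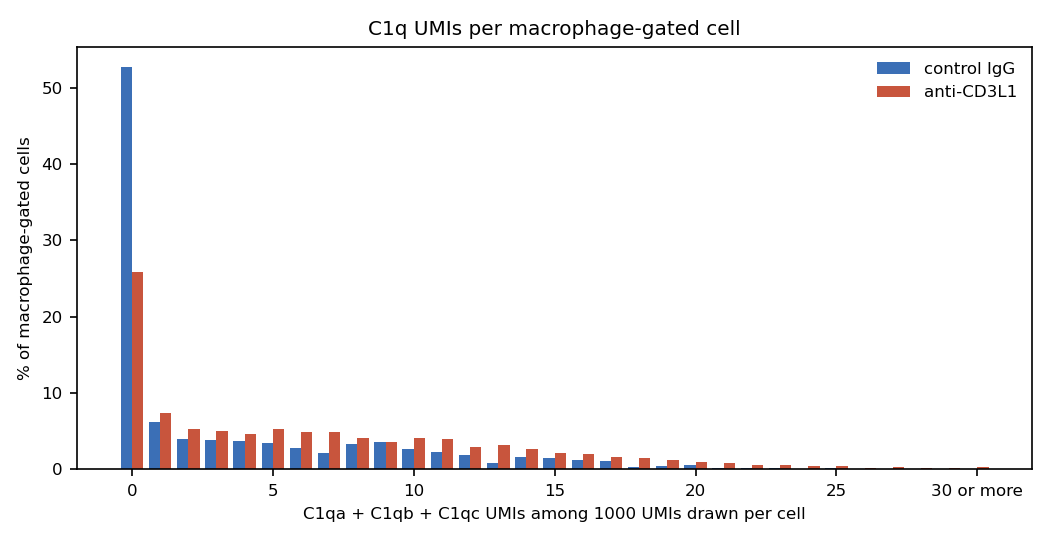
Percent of macrophage-gated cells by the number of C1qa, C1qb and C1qc UMIs among 1000 UMIs drawn from each cell, with control IgG in blue and anti-CD3L1 in red. The last position holds cells with 30 or more. The bar at 0 is 52.7% for control IgG and 25.8% for anti-CD3L1.

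The macrophage-gated cells of the libraries were spread differently over the same clusters, with cluster 4 large in both. In the control IgG library 37.7% of the macrophage-gated cells (281 cells) lay in cluster 14, led by Cav1, Arg1, Gja1, Htra1 and Timp1, and 34.8% (259 cells) in cluster 4, led by Ptprm, Fcrls, Cd72, Ms4a7 and Zmynd15. Summed C1q was at 553 CPM in the first of these and 7870 CPM in the second. In the anti-CD3L1 library the macrophage-gated cells were spread over cluster 4 (22.7%), cluster 9 led by Spp1, Ccl7 and Pf4 (20.2%), cluster 13 led by Atp6v0d2, Gpnmb and Mmp12 (15.7%) and cluster 1 led by Dcstamp, Slc7a2 and Areg (15.4%), with summed C1q at 9903, 4598, 9208 and 3398 CPM. Cluster 14 held 607 cells of the control IgG library against 38 of the other, and cluster 13 held 6 and 671, so these clusters were mostly of 1 library each. The highest C1q level of a cluster was in cluster 16, led by Cbr2, Fcna and Ltc4s, at 10280.0 CPM over 255 anti-CD3L1 cells.

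Within the 3 clusters that held at least 30 macrophage-gated cells of each library, the C1q differences were smaller. In cluster 4, C1qa was at 3608 CPM under control IgG and 4574 CPM under anti-CD3L1, 1.27-fold higher (log2 ratio 0.34, 0.31 to 0.37). C1qb was 1.36-fold and C1qc 1.11-fold higher in the same cluster. Across clusters 4, 9 and 10 the log2 ratio of C1qa ranged from 0.34 to 0.60, that of C1qb from 0.44 to 0.73 and that of C1qc from 0.15 to 0.38, and every interval lay above 0. Cluster 9 held 38 and cluster 10, led by the interferon-induced genes Ifit1bl1 and Ifit3, 41 macrophage-gated cells of the control IgG library.

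**Figure D3:**
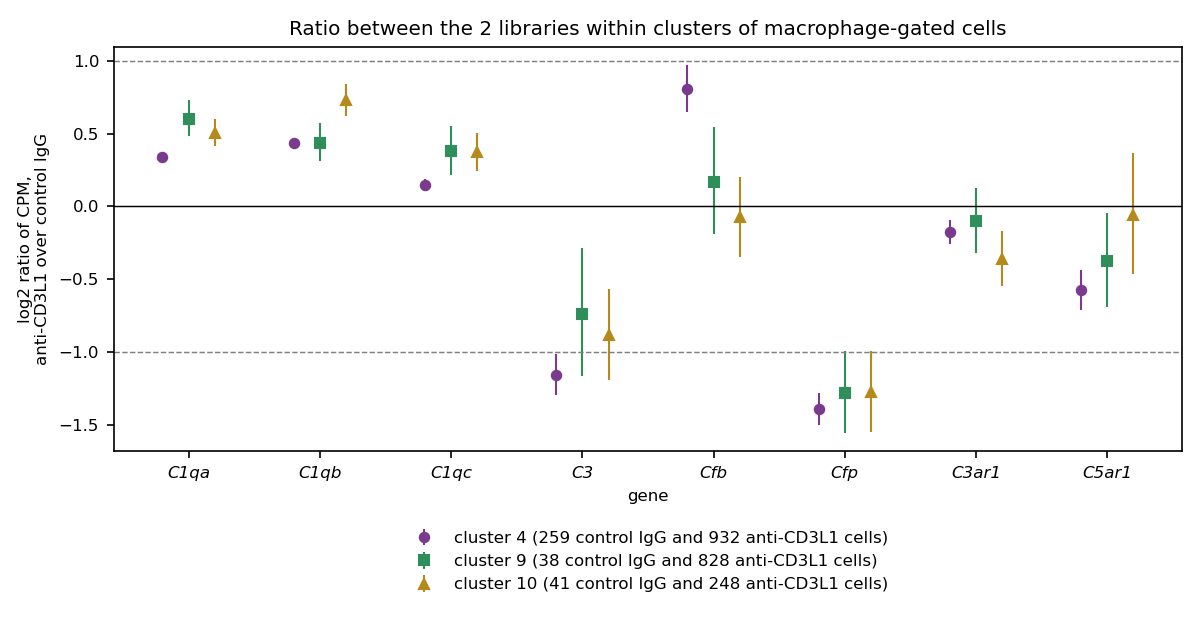
Log2 ratio of CPM, anti-CD3L1 over control IgG, for the 8 genes within 3 clusters of macrophage-gated cells. Bars are exact 95% intervals for counting error, and dashed lines mark 2-fold. C1q chains lie between 0.15 and 0.73, C3 between -1.15 and -0.74, and Cfp between -1.39 and -1.28.

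C3 was lower in the anti-CD3L1 library in macrophage-gated, monocyte-gated and neutrophil-gated cells, and the class that held most of its UMIs was not the same in the libraries. Neutrophil-gated cells were at 333 CPM (327 to 339) under control IgG and 176 CPM (157 to 196) under anti-CD3L1, a 1.89-fold lower level. Monocyte-gated cells were at 243 and 173 CPM, 1.40-fold lower, and macrophage-gated cells at 204 and 104 CPM, 1.97-fold lower (log2 ratio -0.98, -1.05 to -0.90). The summed CPM of the neutrophil marker list was lower along with C3, at 5748 in control IgG and 1080 in anti-CD3L1 monocyte-gated cells. In macrophage-gated cells it was at 2494 and 536 CPM, and none of its 12 markers was at 0 in either class. The sum does not give the direction of single markers. The part of neutrophil RNA in the C3 differences of these classes was not tested. In the control IgG library neutrophil-gated cells were above monocyte-gated and these above macrophage-gated cells with intervals apart, whereas in the anti-CD3L1 library the intervals of the neutrophil level and of the monocyte level (167 to 178) overlapped. NK-gated cells were at 3.93 and 4.51 CPM, which is 1.36% and 3.25% of the 289 and 139 CPM in empty droplets. Summed C1q in NK-gated cells was at 1.35% and 2.68% of its level in empty droplets. The part of free RNA in the C3 levels was not tested. Within clusters 4, 9 and 10 of macrophage-gated cells the C3 log2 ratio was -1.15, -0.74 and -0.89, each interval below 0.

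Neutrophil-gated cells held 62.8% of all C3 UMIs under control IgG and 2.88% under anti-CD3L1. The macrophage-gated share was 11.6% and 38.9%, and the monocyte-gated share 20.1% and 34.9%. A further 5.33% of the C3 UMIs of the anti-CD3L1 library came from 40 fibroblast-gated cells, which are 0.355% of its cells and held C3 at 887 CPM (816 to 962) and Cfb at 525 CPM (471 to 584). CD45 beads should leave such cells out, and the control IgG library held 1 of them. The levels of both genes in these 40 cells were above those of every class with 50 or more cells.

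**Figure D4:**
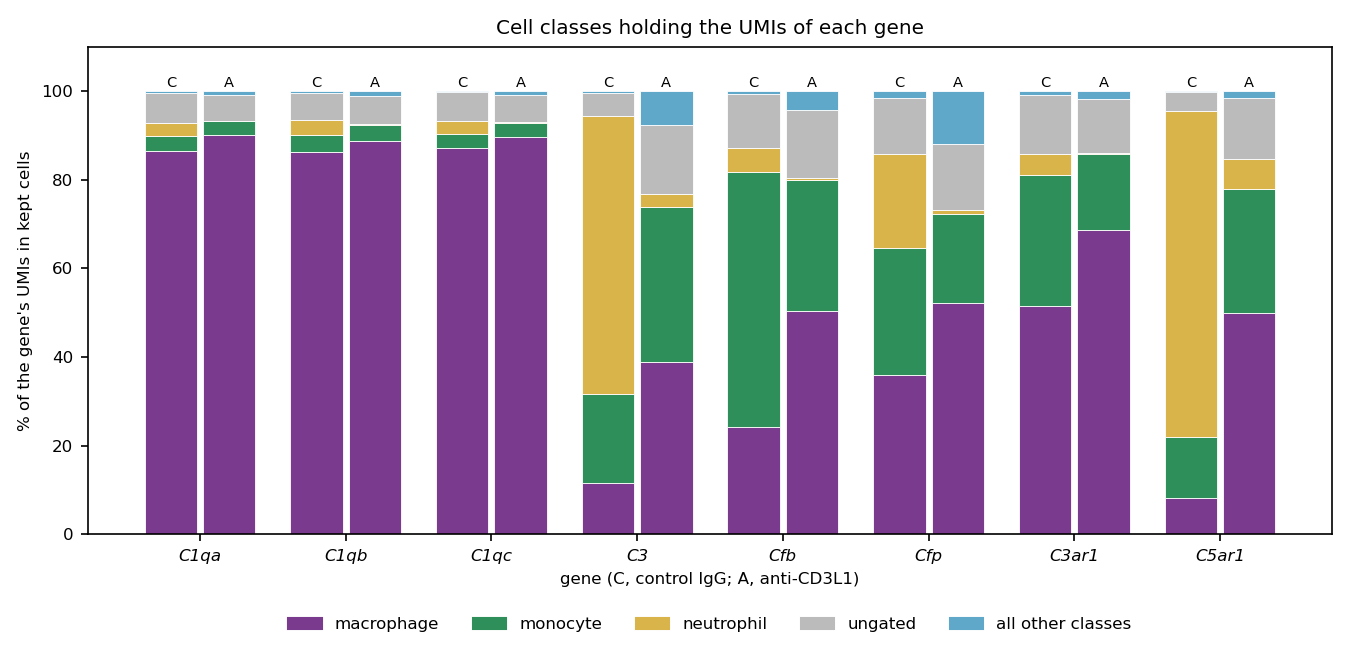
Percent of the UMIs of each gene held by macrophage-gated, monocyte-gated, neutrophil-gated, ungated and all other cells, as stacked bars for control IgG (C) and anti-CD3L1 (A). Macrophages hold 86% to 90% of C1q UMIs in both libraries, whereas neutrophils hold 62.8% of C3 and 73.6% of C5ar1 UMIs under control IgG and 2.88% and 6.76% under anti-CD3L1.

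Cfb, which supplies the catalytic subunit of the alternative pathway convertase, was highest in monocyte-gated cells among classes with 50 or more cells in both libraries, at 178 CPM (171 to 185) and 210.2 CPM (204 to 216). Macrophage-gated cells were at 108 CPM (102 to 115) and 194 CPM (190 to 198), so the gap between these classes was narrower in the anti-CD3L1 library. The macrophage level was 1.79-fold higher (log2 ratio 0.84, 0.75 to 0.94) and the monocyte level 1.18-fold higher (0.24, 0.17 to 0.31). The direction in monocyte-gated cells was not the same in every cluster. There the log2 ratio was 0.26 in cluster 5 and 0.79 in cluster 18, but -0.33 in cluster 7 and -0.29 in cluster 10. Each of these intervals lay apart from 0, while that of cluster 11 held 0. Among macrophage-gated cells the log2 ratio differed by cluster, with 0.81 in cluster 4 and intervals that held 0 in clusters 9 and 10. Cluster 10 as a whole was named monocyte, and held 235 and 294 monocyte-gated cells. The macrophage-gated cells of cluster 10 had the highest Cfb of the 3 in both libraries, at 275 and 261 CPM. In neutrophil-gated cells Cfb was at 7.30 and 42.1 CPM, and NK-gated cells were at 3.37 and 4.76 CPM.

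Cfp was the one gene of the 8 that passed 2-fold between the libraries in macrophage-gated cells as gated here. Properdin, its product, stabilizes the alternative pathway convertase. The macrophage level was 449 CPM (436 to 463) under control IgG and 147 CPM (144 to 151) under anti-CD3L1, 3.05-fold lower (log2 ratio -1.61, -1.66 to -1.55). Monocyte-gated cells were at 246 and 105 CPM, 2.34-fold lower (-1.23, -1.30 to -1.15). Neutrophil-gated cells were at 80.6 and 60.1 CPM, 1.34-fold lower, and NK-gated cells at 7.29 and 7.14 CPM. In the macrophage-gated cells the summed CPM of the neutrophil marker list was also lower, at 536 against 2494 CPM in the control IgG library. None of its 12 markers was at 0, and the sum does not give the direction of single markers. Neutrophil-gated cells had a lower Cfp CPM than macrophage-gated cells in each library. The part of neutrophil RNA in the Cfp difference was not tested.

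The lower Cfp was found in each stratum of macrophage-gated cells. In cells with no C1q UMI of 1000, Cfp was at 511 CPM under control IgG and 4.35-fold lower under anti-CD3L1. The difference was 3.15-fold in cells with 1 to 4 C1q UMIs and 2.25-fold in cells with 5 or more. Control IgG cells of cluster 14 had the highest Cfp of the main control clusters, 555 CPM, but in cluster 4 alone Cfp was still at 380 CPM against 145 CPM, a log2 ratio of -1.39 (-1.50 to -1.28). Clusters 9 and 10 gave -1.28 and -1.28. In monocyte-gated cells the difference varied by cluster and was largest in cluster 5, where Cfp was at 218 and 73.8 CPM, 2.96-fold lower. It was 2.17-fold lower in cluster 7, 2.42-fold in cluster 10 and 1.31-fold in cluster 11. In cluster 18 it was 1.29-fold lower, with an interval of the log2 ratio, -0.96 to 0.21, that held 0. In the anti-CD3L1 library the macrophage-gated cells of clusters 1, 4, 7, 9, 10 and 13 were between 104 and 145 CPM and those of cluster 16 at 354 CPM.

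The highest class for Cfp in the anti-CD3L1 library was not macrophages but type 2 dendritic-gated cells, at 322 CPM (300.1 to 345) over 227 cells. Type 1 dendritic and mature dendritic cells were at 77.4 and 77.2 CPM. The control IgG library held 12 type 2 dendritic-gated cells, too few for the class rule, with Cfp at 487 CPM (390.1 to 601).

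C3ar1, the receptor for C3a, was highest in macrophage-gated cells and was close between the libraries there. Its level was 386 CPM (374 to 399) under control IgG and 376 CPM (370 to 382) under anti-CD3L1, a log2 ratio of -0.04 whose interval, -0.09 to 0.01, held 0. In clusters named macrophage the log2 ratio was 0.32, on the other side of 0. Monocyte-gated cells were at 151 and 175 CPM and neutrophil-gated cells at 10.9 and 32.6 CPM, while NK-gated cells were at 2.24 and 9.15 CPM. In cluster 4 of the macrophage-gated cells C3ar1 was 1.13-fold lower and in cluster 10 it was 1.28-fold lower in the anti-CD3L1 library.

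C5ar1, the receptor for C5a and a guide of neutrophil movement, was highest in neutrophil-gated cells, at 444 CPM (437 to 452) and 406 CPM (377 to 437). Monocyte-gated cells were at 192 and 136 CPM and macrophage-gated cells at 162 and 131 CPM, which is 1.41-fold and 1.23-fold lower in the anti-CD3L1 library. Among monocyte-gated cells the log2 ratio was -0.48, -0.40 and -0.64 in clusters 5, 10 and 18. In cluster 11 it was 0.55 (0.18 to 0.93), on the other side of 0, and in cluster 7 its interval held 0. Levels of C5ar1 in the neutrophil-gated class differed by 1.09-fold, a log2 ratio of -0.13 (-0.24 to -0.02). Neutrophil-gated cells held 73.6% of C5ar1 UMIs under control IgG and 6.76% under anti-CD3L1, where macrophage-gated cells held 49.9%.

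The same 4 genes, C1qa, C1qb, C1qc and C3ar1, were at least 2-fold higher in macrophage-gated than in monocyte-gated cells in each library. Of all genes tested, 17.5% were past 2-fold in that direction under control IgG and 8.96% under anti-CD3L1. C1qa was 37.7-fold higher in macrophage-gated than in monocyte-gated cells under control IgG and 15.5-fold higher under anti-CD3L1. All 8 genes were at least 2-fold higher in macrophage-gated than in NK-gated cells in both libraries, against 25.3% and 24.8% of all genes.

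Between the libraries, 1 of the 8 genes was past 2-fold in macrophage-gated cells, Cfp in the lower direction, beside 4.62% of 14429 genes in that direction and 7.47% in the other. This count rose to 2 with a gate lead of at least 0.1 and with each cell weighted equally, when C3 passed too, and to 5 in clusters named macrophage, when C1qa, C1qb, C1qc and C3 passed. Shares of all genes were not computed for these settings, so the counts of 2 and 5 have none beside them. In monocyte-gated cells 3 genes were higher (all genes, 12.8%) and 1 lower (2.61%). In neutrophil-gated cells 5 were higher (34.2%) and none lower (5.77%). These 5 genes had 58 to 125 UMIs in the anti-CD3L1 neutrophil-gated cells. Median depths of the class were 4495.5 UMIs under control IgG and 2163 under anti-CD3L1, while empty droplets held 41.6 and 61.1 UMIs on average. The median log2 ratio of the 8 genes was 0.28 in macrophage-gated, 0.22 in monocyte-gated and 1.72 in neutrophil-gated cells, and that of all genes tested 0.00, 0.27 and 0.66. With the median ratio of genes as the scaling, which shifts neutrophil-gated log2 ratios by 0.54, C3 was also past 2-fold lower there, giving 5 higher and 1 lower.

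**Figure D5:**
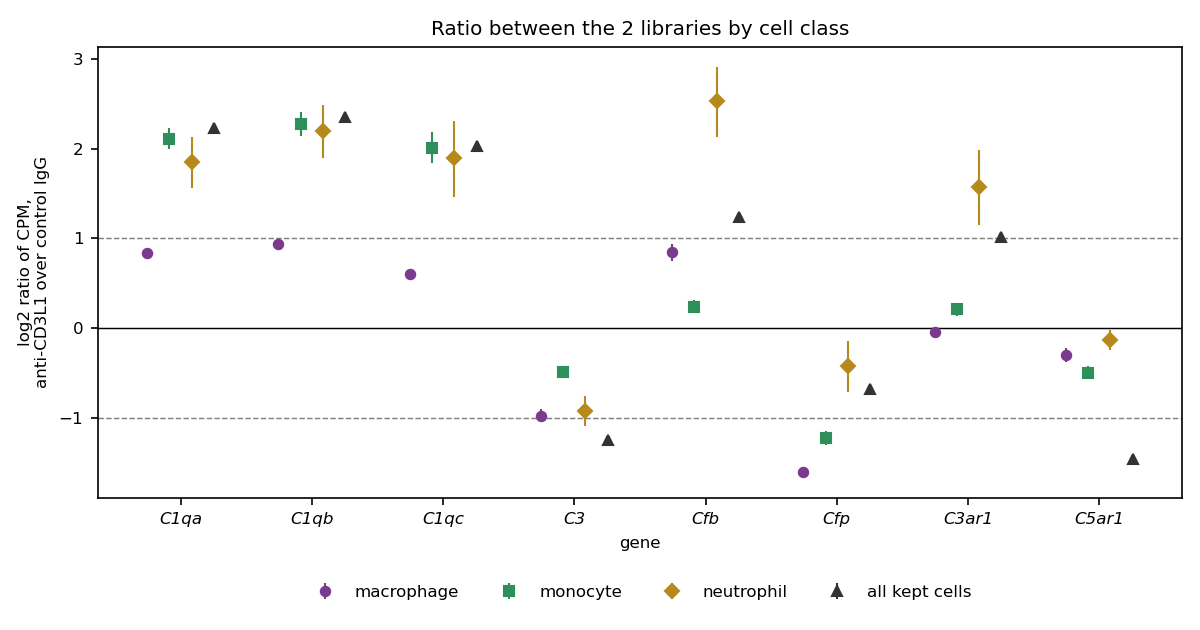
Log2 ratio of CPM, anti-CD3L1 over control IgG, for the 8 genes in macrophage-gated, monocyte-gated, neutrophil-gated and all kept cells. Bars are exact 95% intervals for counting error, and dashed lines mark 2-fold. Cfp lies at -1.61 in macrophage-gated cells, C3ar1 at -0.04, and the C1q chains are past 2-fold in all but the macrophage-gated cells.

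Over all kept cells, where a gene's level follows both the makeup of a library and its level in each class, 5 genes were past 2-fold higher (all genes, 33.6%) and C3 and C5ar1 lower (6.65%). With the median ratio of genes as the scaling, a shift of 0.64, the split was 3 higher and 3 lower, C3ar1 and Cfb no longer being past 2-fold and Cfp passing it. Over macrophage-gated, monocyte-gated, neutrophil-gated, NK-gated and ungated cells, which held 98.2% and 89.2% of the UMIs of the libraries, exchanging only the class shares moved C1qa by 1.49 and exchanging only the class levels by 0.97 on the log2 scale, while both together gave 2.37. For C5ar1 these values were -0.96, -0.21 and -1.34, and for C3ar1 1.12, 0.18 and 1.14. Cfp moved in opposite directions, 0.76 by the shares and -1.12 by the levels, with -0.70 for both. C3 moved by -0.50 and -0.80, and Cfb by 0.71 and 0.72. These shares are of UMIs and these levels are CPM, so the values do not give numbers of cells or RNA per cell. They hold only as far as the gates assign cells.

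Genes with the most similar pattern were sought by Pearson's r of log2(CPM + 1) over 14 class and library profiles among 5897 genes. Folr2, a folate receptor of tissue macrophages, came first for C1qa (0.98), C1qb (0.97) and C1qc (0.98), followed by Ms4a7, Apoe and Ccl8. Folr2, Ms4a7 and Apoe are markers of the macrophage gate. Nearest to C3 was Pla2g7 (0.98), to Cfp Asah1 (0.91), to C3ar1 Slc7a7 (0.98) and to C5ar1 Rab20 (0.98). C3 and C5ar1 had r of 0.92 with each other, and Cfb and C3ar1 0.91. The profiles share libraries and free RNA, so these values are a description. Macrophage-gated cells with a Folr2 UMI had C1qa at 2316 and 3964 CPM and those without at 1523 and 2531 CPM, at median depths of 15342 and 10742 UMIs with and 12700.0 and 8759.5 UMIs without it.

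Among 46 other complement genes of a fixed list, 25 had at least 20 UMIs in macrophage-gated cells, of which 5 were past 2-fold higher and 4 lower in the anti-CD3L1 library, with a median log2 ratio of 0.35, beside 7.47% and 4.62% of all genes and a median of 0.00. Of the recognition molecules, Colec12, a scavenger receptor collectin, was at 73.3 and 203 CPM, and Fcna, a ficolin, at 4.34 and 9.86 CPM. C1ra and C1rb, which with C1s1 and C1s2 encode the proteases that C1q carries, were at 1.58 and 1.45 CPM and at 2.47 and 4.21 CPM, while C1s1 and C1s2 had 5 UMIs or fewer in each library in these cells. C4b, the next substrate of the classical pathway, was at 18.5 and 32.6 CPM, and C2 at 1.68 and 2.80 CPM. Of the terminal components, C6 was at 0.394 and 3.25 CPM on 4 and 132 UMIs and C9 at 0.789 and 1.40 CPM. Hc, which encodes C5, was at 0.197 and 0.123 CPM on 2 and 5 UMIs.

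Regulators were mixed. Cd55, a membrane inhibitor of convertases, was at 8.88 and 1.84 CPM in macrophage-gated cells, and Cr1l, which encodes Crry, at 46.4 and 44.6 CPM with an interval of the log2 ratio from -0.20 to 0.09. Serping1, the C1 inhibitor, and Masp2 were also past 2-fold lower, on 15 and 19 UMIs and on 10 and 18 UMIs, and the interval for Masp2 held 0. Among the other receptors, Itgam and Itgax, the alpha chains of complement receptors 3 and 4, lay on opposite sides, with Itgam at 378 and 145 CPM (log2 ratio -1.38) and Itgax at 37.8 and 109 CPM (1.53), while their shared chain Itgb2 was at 186 and 150.4 CPM. The same opposite directions held in monocyte-gated cells, with log2 ratios of -1.22 for Itgam and 1.36 for Itgax. They did not hold in neutrophil-gated cells, where both were higher, at 0.29 and 2.11. In NK-gated cells the ratios were 0.33 for Itgam, with an interval that held 0, and 1.81 for Itgax. Vsig4, a macrophage receptor for C3 fragments, was at 0.197 and 1.11 CPM on 2 and 45 UMIs, with an interval of the log2 ratio from 0.55 to 5.58. In monocyte-gated cells 3 of 20 such genes were past 2-fold higher and 2 lower, beside 12.8% and 2.61% of all genes, Fcnb being at 6.99 and 1.09 CPM.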

How the data were processed

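CD45 bead-sorted cells of 2 sets of 3 tumors gave 1 library per group. The values are UMI counts as deposited, from Cell Ranger 7.1.0 by the authors, and cover every barcode without a cell call, 74850604 UMIs for control IgG and 108246719 for anti-CD3L1. Their notes name GRCm39 and Seurat 5.1.0. A deposited table of macrophage genes holds the authors' own fold changes, shares of cells and p-values and was not used.

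Barcodes were kept with at least 500 UMIs, over 200 and under 6000 genes and under 5% mt- UMIs. A class score was the mean over its markers of log-scaled UMIs per 10000, each divided by its 95th percentile and capped, and the top class was taken with a score of at least 0.15 and a lead of at least 0.05. Counts were summed per class and library and divided by the summed UMIs to give CPM. Intervals of levels are exact Poisson, of ratios exact conditional binomial and of shares Clopper-Pearson. A ratio counted as past 2-fold needed at least 20 UMIs. Thinning drew 1000 UMIs per cell without replacement and left out shallower cells, 5 control IgG and 40 anti-CD3L1 macrophage-gated cells. Clusters used 2000 variable genes without the 8 genes, 30 principal components, 20 neighbors and Leiden clustering at resolution 1 (scanpy 1.11.5, leidenalg 0.10.2, numpy 2.4.6, scipy 1.17.1). Ratios and gates were tested on simulated counts drawn from the profiles of the gated cells themselves. These counts hold no spread between tumors, so they check the calculation only. Doublets were kept. Other complement genes were a fixed list, and genes of like pattern were the 3 with the highest r per gene. Some of these genes are not reported here. The 8 genes and all lists were chosen with earlier results of these data known. No p-value is given, since each group is 1 library.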

Additional observations from a re-analysis of the deposited data

How the results depend on the processing

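The 32 log2 ratios of the 8 genes in macrophage-gated, monocyte-gated, neutrophil-gated and all kept cells were recomputed under up to 10 alternatives, 304 values in all, of which 217 stayed within the counting interval and 87 moved outside it. The sign turned in 1 of them, C3ar1 in macrophages, from -0.04 to 0.32 with clusters in place of the gates, and in none whose interval lay apart from 0. In macrophage-gated cells the count of genes past 2-fold went from 1 to 2 with a gate lead of at least 0.1 and to 2 with each cell weighted equally, C3 joining Cfp, and to 5 when clusters made without the 8 genes replaced the gates. The share of all genes past 2-fold was not computed under these alternatives. In those clusters C1qa was at 1.46, C1qb at 1.59, C1qc at 1.24, C3 at -1.06 and Cfp at -1.49. Cfp in macrophages ranged from -1.64 to -1.49 and C3ar1 from -0.09 to 0.32 over the alternatives. C1qa in neutrophils ranged from 1.25 to 2.44. The other counts stayed within 1.5 times their value. Subtracting free RNA from each cell and leaving out the 26 barcodes found in both libraries, the latter chosen after seeing the data, were among the alternatives. Scrublet called 0 doublets by its own threshold in either library, so the 586 and 1016 cells of highest score were left out instead. No paired analysis was possible because each group was 1 library, and no library could be left out.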
